A study of Mus musculus with 8 samples.

Results

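The type I interferon-stimulated genes described here are 33 antiviral genes chosen by name, among them the Ifit, Oas, Mx and Isg families. All 33 had a row among the 19673 genes of the authors' table, and 32 had the mean of at least 10 over the libraries that was needed for testing. RNA came from T cells sorted as live, CD45+, CD3e+ and CD8+ out of mouse tumours, in 8 libraries. The tumours arose from injected Py8119 cells, an established mouse mammary cancer line, either in hosts lacking Mtdh (KO, 4 biological replicates) or in wild-type ones (WT, 4 biological replicates). Only the host genotype differed by the labels, which do not give the tumour's own Mtdh status, the kind of knockout allele, or the age or sex of the mice. The question addressed here is whether these genes differed in level between cells sorted as CD8 T cells from tumours of KO and WT hosts. Libraries are written as KO 1 to KO 4 and WT 1 to WT 4, and values are read counts per gene that the authors estimated and normalized with DESeq2 size factors, called normalized values below.

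Type I interferons are secreted by cells that sense foreign or misplaced nucleic acid, and they act on nearly every cell through the receptor made of Ifnar1 and Ifnar2. The receptor's kinases, Tyk2 and Jak1, start a signal that ends in the complex ISGF3, of which Stat2 and Irf9 are parts. That complex binds the interferon-stimulated response element (ISRE) in promoters and switches on antiviral genes. Interferon gamma, the type II interferon made by T cells and NK cells, acts mainly through another element, the gamma-activated sequence (GAS), and the target genes of both interferons overlap. In tumours, type I interferon is known for its role in dendritic cell priming of CD8 T cells, and lasting exposure is known to go with T cell dysfunction.

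Each library held an estimated 16400000 to 29600000 reads. Small nuclear, nucleolar and Cajal body RNAs made up 27.6 to 35.2% of the normalized values. The rest came from an estimated 115000 to 643000 distinct cDNA fragments. One such fragment was worth 23.6 normalized units in WT 3, the library with the most fragments, and 149 in KO 2, the one with the fewest, so low values rest on few molecules. Mtdh itself was lower in every KO library (2538 to 5118) than in any WT library (6407 to 12745), with a log2 fold change of -1.23 (SE 0.25, adjusted p = 0.0400 by limma). That call was lost without KO 2, KO 3, KO 4, WT 1 or WT 2. It was also lost with a minimum mean of 50, and with the replicate number as a block in the fit. The defining marker Cd8a was present in every library, at 7561 to 13355 in KO and at 1565 to 6545 in WT, lowest in WT 2. Its groups did not overlap, as in 2.02% of all tested genes. Its log2 fold change was 1.15 (SE 0.34, adjusted p = 0.327 by limma). Transcripts of cells outside the sort gate were abundant, with the macrophage gene Lyz2 at 75242 to 211543, above Cd8a in every library. The macrophage and monocyte markers summed to 112490 to 255310 in KO and 189030 to 293760 in WT. Values of a gene therefore need not come from CD8 T cells alone, and their cell of origin was not tested. WT 2 stood apart in T cell content: its 10 CD8 T cell markers summed to 7483, against 18990 to 24798 in the other WT libraries and 19494 to 42686 in KO.

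Promoter sequences come first, since the ISRE is the element through which ISGF3 acts. The table of RefSeq promoters (build GRCm38.p6, 250 bases before to 50 bases after each start) held 25 of the 33 genes, all but Zbp1, Usp18, Oas2, Mx1, Mx2, Rtp4, Ifi27l2a and Parp14, and 16 of the 25 had a match on either strand to the ISRE core, searched as GAAA, any 2 bases and GAAA again, against 3.99% of the 27025 genes in that table. By promoter, the shares were 58.1% of 31 and 3.44% of 32851. Ifi44, which had the smallest limma p of the 33, had no match in its window. The stretches below come from a choice of genes that hold the core, some with and some without an unadjusted limma p under 0.05. They are printed 5′ to 3′ on the gene's strand with each match in capitals, overlapping matches merged, and they end before the start.
Isg15: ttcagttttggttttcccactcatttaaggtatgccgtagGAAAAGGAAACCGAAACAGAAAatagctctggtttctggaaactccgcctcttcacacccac
Ifit1: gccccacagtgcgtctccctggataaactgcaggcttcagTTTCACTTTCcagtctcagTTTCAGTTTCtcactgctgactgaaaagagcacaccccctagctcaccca
Ifit3: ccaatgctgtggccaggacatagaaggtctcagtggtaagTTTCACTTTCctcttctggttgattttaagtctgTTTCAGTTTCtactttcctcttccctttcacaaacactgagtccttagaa
Ifit3b: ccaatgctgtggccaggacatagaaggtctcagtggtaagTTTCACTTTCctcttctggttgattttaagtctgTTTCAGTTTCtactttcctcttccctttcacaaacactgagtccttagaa
Rsad2: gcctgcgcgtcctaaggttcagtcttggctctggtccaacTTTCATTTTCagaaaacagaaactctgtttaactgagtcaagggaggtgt
Bst2: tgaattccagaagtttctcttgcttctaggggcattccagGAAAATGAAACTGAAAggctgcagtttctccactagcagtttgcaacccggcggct
Trim30a: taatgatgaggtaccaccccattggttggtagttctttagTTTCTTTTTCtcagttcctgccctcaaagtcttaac
Slfn5: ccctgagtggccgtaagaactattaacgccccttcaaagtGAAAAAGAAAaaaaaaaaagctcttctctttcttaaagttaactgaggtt

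In Isg15 (chr4:156200835-156200936, minus strand) 3 overlapping matches ran in tandem, and in Bst2 (chr8:71537547-71537642, minus strand) 2 overlapped. Ifit1 (chr19:34640745-34640853, plus strand) carried 2 separate matches. The stretches of Ifit3 (chr19:34583333-34583456, plus strand) and Ifit3b (chr19:34607729-34607852, plus strand) were identical over all 124 bases. With the whole windows set side by side at the first match, 201 of 268 bases (75%) were equal. No gaps were allowed, so an inserted or missing base would lower that share. Rsad2 (chr12:26456523-26456612, minus strand), Trim30a (chr7:104465194-104465269, minus strand) and Slfn5 (chr11:82951907-82951996, plus strand) had 1 match each in the stretch shown. The GAS core, searched as TTC, any 3 bases and GAA, reads the same on both strands. It was in 4 of the 25 genes (Ifit2, Oas1a, Bst2 and Isg20), or 16%, against 9.55% of all genes in the table. In Bst2 the GAS match overlaps the first ISRE match. No match says only that these letters are not in this window.

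**Figure D1:**
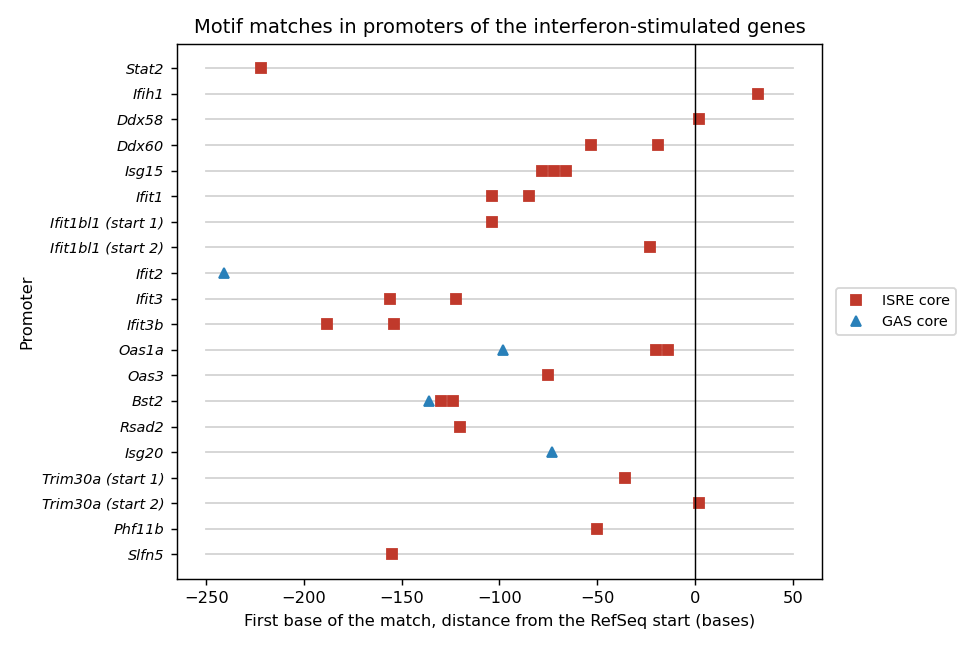
First base of each match to the ISRE core (squares) and the GAS core (triangles), in bases from the RefSeq start (x axis), for each promoter of an interferon-stimulated gene that held a match (y axis). ISRE matches lay between 222 bases before the start (Stat2) and 32 bases after it (Ifih1), and Isg15 held 3 in tandem.

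None of the 32 tested genes passed the limma adjusted p threshold of 0.05, where 38 of all 16120 tested genes (0.236%) did, and the lowest adjusted p was 0.495, for Ifi44. At an unadjusted p under 0.05, 6 of the 32 were higher in KO and 0 were lower, where 3.21% of all tested genes were higher and 3.49% lower. These 6 were Ifi44, Trim30a, Parp14, Rsad2, Ifit1 and Bst2. The count was 3 without KO 4 or without WT 3 and 4 without WT 1. The median log2 fold change of the 32 was 0.48, with 24 above 0, and the median of all tested genes was -0.12, with 43.4% above 0. All 4 KO libraries lay above all 4 WT libraries for 3 of the 33, namely Bst2, Parp14 and Trim30a, where 2.02% of all tested genes did so, and the reverse held for 0 of the 33 (2.09% of all tested genes). Without KO 3 the median was 0.37 with 20 of 33 above 0, without WT 2 it was 0.39 with 21 of 33, and without KO 2 it was 0.61 with 27 of 33 above 0.

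The spread of the changes went with abundance. A set of 12 had a mean of at least 448, which is 3 fragments' worth in KO 2, a split that was made after the values were seen. Among these 12 the log2 fold changes ran from 0.07 (Ddx60) to 1.24 (Ifi44), all above 0, with standard errors of 0.23 to 0.51 and a median of 0.53. Of the 12, 5 had an unadjusted p under 0.05, all higher in KO (6.29% of genes with such a mean), and 2 had all KO libraries above all WT libraries (3.51% of genes with such a mean). For comparison, 49.5% of the 5836 genes with such a mean were above 0, and their median was -0.0047. Just under that mean stood Ifit1bl1 (444) and Usp18 (444), and just above it Ifit2 (573). In the 20 less abundant genes that were tested, the log2 fold changes spread from -2.61 (Isg20) to 2.49 (Oas1a), 12 above 0 and 8 below, with standard errors of 0.44 to 2.27. For Zbp1, Isg15 and Rtp4 the log2 fold change was below 0 although the KO mean was the higher one (228 against 181, 117 against 83.2 and 410 against 259), since a single library near 0 weighs heavily on the log scale. Ddx58, Ddx60 and Oas3 turned to values below 0 without KO 3 and also without WT 2, which left 9 of the 12 above 0 in each case.

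**Figure D2:**
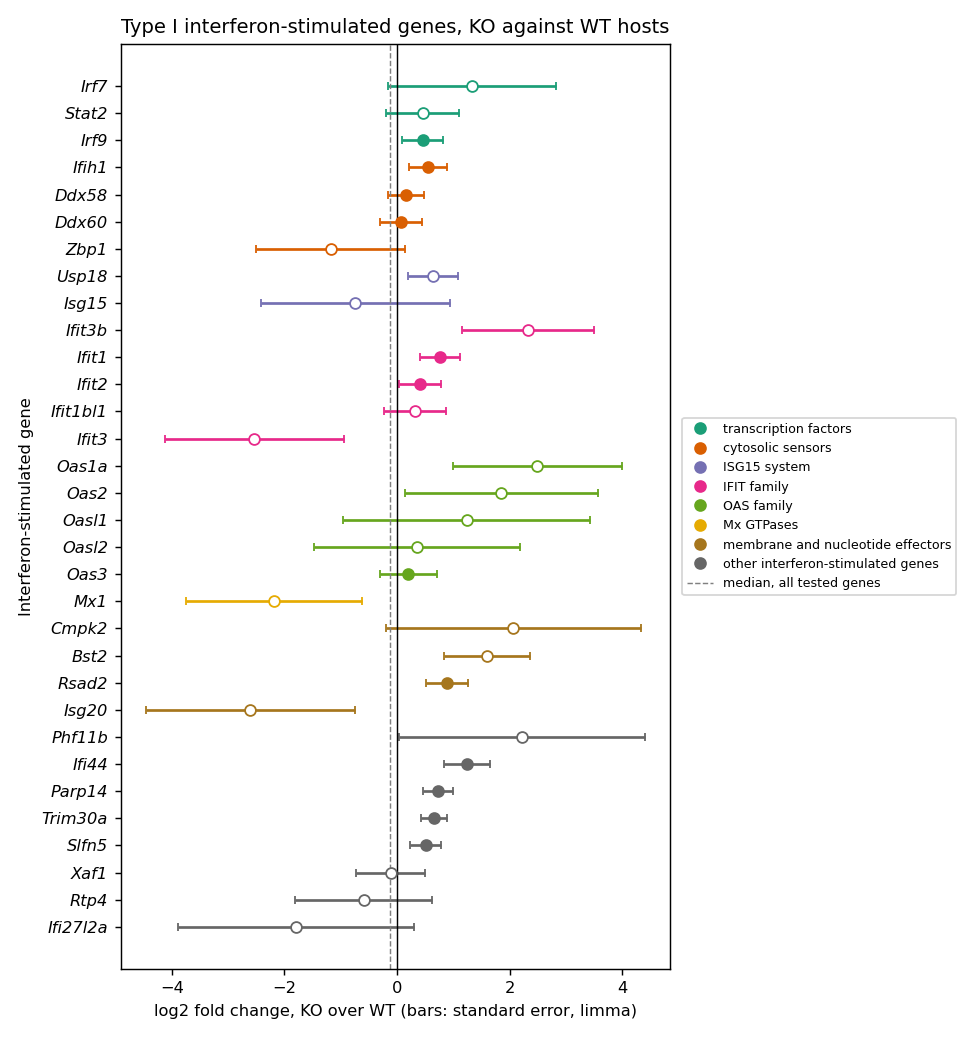
Log2 fold change of KO over WT (x axis) for the 32 tested interferon-stimulated genes (y axis), coloured by role, with the limma standard error as bars. Filled points have a mean of at least 448 and all 12 lie above 0, open points have a lower mean and spread from -2.61 to 2.49, and the dashed line is the median of all tested genes, -0.12.

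Trim30a, a TRIM-family E3 ligase that restrains Toll-like receptor signalling (ENSMUSG00000030921, chromosome 7, 104058232 to 104114400 of mm39), was the most abundant of the 33 per length, at 995 normalized units per kilobase of exon. Its values were 4289, 5505, 4591 and 5440.0 in KO 1 to KO 4, and 3758, 1989, 3310.2 and 3835 in WT 1 to WT 4. Every KO library was above every WT library, and WT 2 was the lowest of the 8. KO averaged 4956 ± 609 and WT 3223 ± 855 (SD, n = 4 each), a log2 fold change of 0.66 (SE 0.23, adjusted p = 0.574 by limma), or 0.44 without WT 2. Trim30a has close paralogs in a gene cluster, between which reads can be hard to part.

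Parp14, an ADP-ribosyltransferase (ENSMUSG00000034422, chromosome 16, 35653244 to 35691914), stood at 1608, 1569, 2159.9 and 2072 in KO 1 to KO 4, and at 1171, 770.2, 1188 and 1400.2 in WT 1 to WT 4. The groups did not overlap, KO 3 and KO 4 were the highest and WT 2 the lowest. Its log2 fold change was 0.73 (SE 0.27, adjusted p = 0.630 by limma), and 0.55 without WT 2. Slfn5, a Schlafen-family protein (ENSMUSG00000054404, chromosome 11, 82842175 to 82855666), was likewise highest in KO 3 and KO 4 and lowest in WT 2. It was at 1222, 1254, 2078 and 1917 in KO, and at 1065, 858, 1456 and 1127 in WT. Here the groups overlapped, since WT 3 was above KO 1 and KO 2, and the log2 fold change was 0.51 (SE 0.28, adjusted p = 0.770 by limma).

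Ifi44, a microtubule-associated interferon-induced protein (ENSMUSG00000028037, chromosome 3, 151436559 to 151455597), had the smallest p of the 33. Its values were 1031, 851, 699 and 1222 in KO 1 to KO 4, and 802, 339.7, 409 and 216 in WT 1 to WT 4. Only WT 1 reached into the KO range, above KO 3. KO averaged 951 ± 226 and WT 442 ± 253 (SD, n = 4 each), with a log2 fold change of 1.24 (SE 0.41, adjusted p = 0.495 by limma). That value ran from 0.95 without WT 4 to 1.58 without WT 1.

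**Figure D3:**
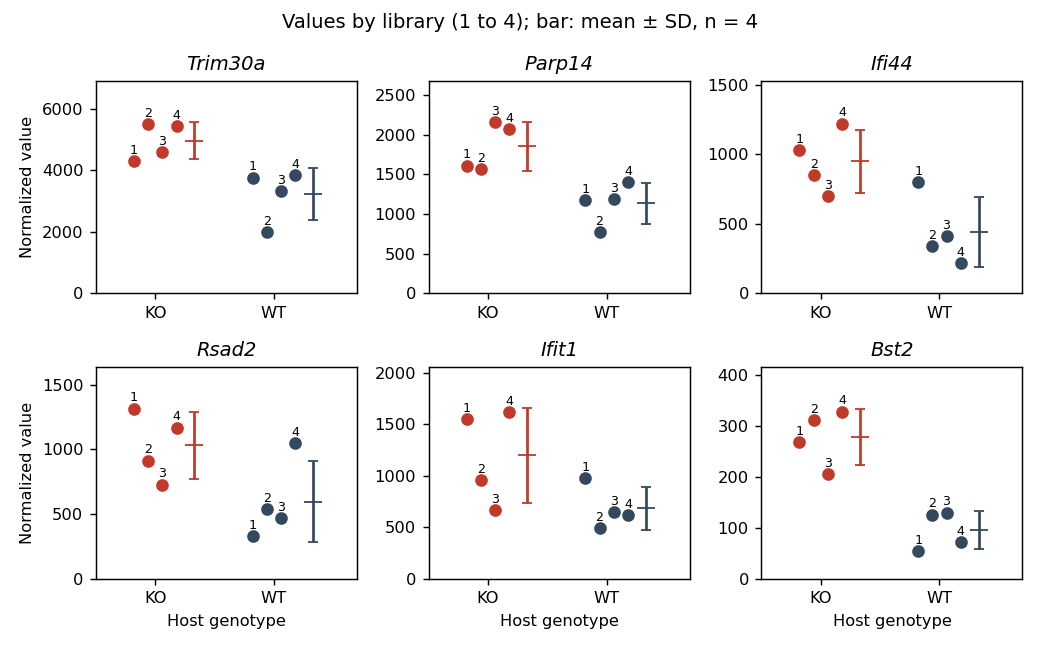
Normalized values (y axis, from 0) of the 6 interferon-stimulated genes with an unadjusted p under 0.05, by host genotype (x axis), with points numbered by library and bars for the mean ± SD (n = 4). The KO points lie wholly above the WT points for Trim30a, Parp14 and Bst2, and the groups overlap for Ifi44, Rsad2 and Ifit1.

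Among effectors that act on membranes or nucleotides, Bst2 and Rsad2 were higher in KO at an unadjusted p, and neither passed adjustment. Bst2, or tetherin, holds budding virus particles at the cell surface (ENSMUSG00000046718, chromosome 8, 71986899 to 71990100). Its values were 268, 310.5, 205 and 328 in KO 1 to KO 4, and 54.9, 126, 129 and 72.5 in WT 1 to WT 4. The groups did not overlap, although the WT 1 value is below 1 fragment's worth in that library (60.9). The means were 278 ± 54.5 and 95.7 ± 37.6 (SD, n = 4 each), a 2.90-fold ratio and a log2 fold change of 1.60 (SE 0.76, adjusted p = 0.746 by limma). Leaving out any 1 library gave values between 1.36 and 1.77.

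Rsad2, or viperin, makes a chain-terminating nucleotide from CTP (ENSMUSG00000020641, chromosome 12, 26492745 to 26506451). It stood at 1315, 914, 729 and 1169 in KO, and at 331, 541, 467 and 1049 in WT. Here 3 WT libraries were below every KO library and WT 4 lay within the KO range. The log2 fold change was 0.88 (SE 0.38, adjusted p = 0.730 by limma). Cmpk2, a nucleotide kinase whose gene (chromosome 12, 26519203 to 26529836) neighbours Rsad2, was low, between 0 and 183 in KO and between 0 and 115 in WT, with under 3 reads in 3 libraries. Isg20, an exonuclease that degrades single-stranded RNA, was at 0.904, 1.10, 148 and 67.1 in KO 1 to KO 4 and at 41.0 to 158 in WT, a log2 fold change of -2.61 (SE 1.86) that rests on 1 read each in KO 1 and KO 2.

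The IFIT proteins bind viral RNA with foreign ends, and all 5 genes lie in a cluster on chromosome 19 between 34528094 (Ifit2) and 34627409 (Ifit1). Ifit1 (ENSMUSG00000034459) was at 1547, 957, 669 and 1616 in KO 1 to KO 4, and at 978, 488, 649.8 and 621 in WT 1 to WT 4. KO 1 and KO 4 were the highest, WT 1 reached above KO 2 and KO 3, and the log2 fold change was 0.76 (SE 0.35, adjusted p = 0.732 by limma). Ifit2 ran from 535 to 926 in KO and 359.6 to 612 in WT, with a log2 fold change of 0.40 (SE 0.37), or 0.22 without KO 3. Ifit1bl1 overlapped widely, between 224 and 640.3 in KO and between 121 and 754 in WT.

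Ifit3 and Ifit3b, whose printed promoter stretches are the same though the wider windows differ, had estimates of opposite sign. Ifit3b (ENSMUSG00000062488) was at 139, 514, 262 and 513 in KO and at 1.86, 156, 122 and 284 in WT, a log2 fold change of 2.32 (SE 1.17, adjusted p = 0.764 by limma), or 0.83 without WT 1. Ifit3 (ENSMUSG00000074896) was at 10.6, 8.86e-16, 270.5 and 316 in KO and at 153, 101, 355 and 199 in WT, a log2 fold change of -2.53 (SE 1.60, adjusted p = 0.770 by limma), or -0.87 without KO 2. The value of 8.86e-16 in KO 2 is far below 1 read and shows that the values are estimates. Reads shared by similar genes can be split between them, so each gene alone is uncertain. Summed over both genes, the values were 149.98, 514, 533 and 828 in KO 1 to KO 4 and 155, 256, 477 and 483 in WT 1 to WT 4. The sums overlapped between groups, KO averaging 506 ± 278 and WT 343 ± 164 (SD, n = 4 each).

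The oligoadenylate synthetases sense double-stranded RNA, and most make the messenger that activates RNase L. All 5 listed genes, on chromosome 5, had log2 fold changes above 0, from 0.20 (Oas3) to 2.49 (Oas1a), and none had an unadjusted p under 0.05. Oas1a was at 122, 402, 92.2 and 238 in KO and at 167, 0.000508, 157 and 40.2 in WT. Its value of 2.49 (SE 1.51, adjusted p = 0.770 by limma) rested on WT 2 and was 0.82 without that library. Oas1a has near-identical copies, between which reads can be hard to part. Oas2 was at 34.3, 149.7, 52.0 and 237 in KO and at 0, 118, 52.9 and 60.7 in WT, a log2 fold change of 1.85 (SE 1.71) that was 0.30 without WT 1. Oas3, the only abundant member, ran from 205 to 1209 in KO and from 294 to 999 in WT, ranges that overlapped widely. Oasl1 (0 to 201 in KO, 0 to 81.1 in WT) and Oasl2 (1.10 to 348 in KO, 9.46 to 85.7 in WT) had standard errors of 2.19 and 1.83.

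Of the 4 sensors of viral nucleic acid in the cytosol, 3 had log2 fold changes above 0 and none had an unadjusted p under 0.05. Ifih1, which encodes MDA5, a sensor of long double-stranded RNA (ENSMUSG00000026896, chromosome 2, 62426142 to 62476599), was at 844, 1311, 733 and 741 in KO and at 485, 632, 544 and 787 in WT. Only WT 4 lay within the KO range, and the log2 fold change was 0.55 (SE 0.34, adjusted p = 0.770 by limma), or 0.36 without KO 2. Ddx58, which encodes RIG-I, was at 999, 1359.6, 1898 and 1153 in KO and at 1286, 621, 1669.7 and 1421 in WT. Its groups overlapped almost fully, with a log2 fold change of 0.16 (SE 0.32). Ddx60, a helicase, gave 0.07 (SE 0.37). Zbp1, a sensor of Z-form nucleic acid that triggers cell death, was at 118, 1.10, 344 and 449 in KO and at 167, 234, 135 and 190.0 in WT. Its log2 fold change was -1.18 (SE 1.32), and 0.57 without KO 2, where it had 1 read.

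Of the transcription factors, Irf9, the DNA-binding part of ISGF3 (ENSMUSG00000002325, chromosome 14, 55841028 to 55847487), was at 782, 593, 699 and 722 in KO and at 497, 348, 515 and 746 in WT. Again 3 WT libraries lay below all KO libraries and WT 4 among them, and the log2 fold change was 0.45 (SE 0.36, adjusted p = 0.805 by limma), or 0.27 without WT 2. Stat2, its partner, ran from 129 to 507 in KO and 122 to 267 in WT (0.45, SE 0.65), a value that was 0.13 without KO 3 and 0.78 without KO 1. Irf7, which amplifies interferon alpha production, was at 165, 5.50, 479 and 169.7 in KO and at 66.0, 20.8, 29.2 and 48.1 in WT. It was above every WT library in 3 KO libraries and lowest of all in KO 2, with means of 205 and 41.0 and a log2 fold change of 1.34 (SE 1.49, adjusted p = 0.854 by limma), with 2.64 without KO 2 and 0.57 without KO 3.

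Isg15 is a ubiquitin-like modifier, and Usp18 removes it from proteins and blocks signalling from Ifnar2. Usp18 (ENSMUSG00000030107, chromosome 6, 121222865 to 121247876) was at 651, 359, 466 and 683 in KO and at 278, 244, 422 and 445 in WT. Only KO 2 fell below the highest WT values, and the log2 fold change was 0.64 (SE 0.44, adjusted p = 0.779 by limma). Isg15 was at 116, 0, 156 and 197 in KO and at 54.9, 171, 53.8 and 52.8 in WT. Its log2 fold change of -0.74 (SE 1.68) was 1.07 without KO 2, the library in which it was listed at 0.

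The remaining members gave no clear direction. Mx1 and Mx2 encode dynamin-like antiviral GTPases, and the authors' table marks both as polymorphic pseudogenes, a label that goes with the defective alleles known from many laboratory strains. Mx1 was at 236, 0, 33.8 and 152 in KO and at 301, 166, 187 and 56.0 in WT (log2 fold change -2.18, SE 1.56, and -0.50 without KO 2), and Mx2 had under 3 reads in 5 libraries and was not tested. Rtp4, a chaperone that also limits viral replication, was at 2.71 in KO 1 and at 364 to 799 in the other KO libraries, against 96.5 to 415 in WT. Its log2 fold change of -0.59 (SE 1.22) was 1.19 without KO 1. Xaf1, a proapoptotic protein, was between 134 and 285 in KO and between 167 and 363 in WT. Ifi27l2a (0 to 71.4 in KO, 4.73 to 72.6 in WT) and Phf11b (1.10 to 118 in KO, 0 to 61.1 in WT) rested on few fragments.

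Libraries differed from one another in a shared way. Of the 12 genes with a mean of at least 448, WT 2 was the lowest of the 8 libraries for 8, and a KO library was the highest for all 12, KO 3 for 6 of them. The 33 genes summed to 18178, 18483, 22923 and 23763 in KO 1 to KO 4, and to 14473, 10071, 15590 and 16375 in WT 1 to WT 4, sums in which Trim30a weighs most. KO 2 had under 3 reads for 11 of the 33, KO 1 for 3, KO 3 for 1 and KO 4 for 0, and the WT libraries for 5, 4, 0 and 1. The CD8 T cell markers summed to 19494, 31933, 42686 and 32930 in KO and to 18990, 7483, 21655 and 24798 in WT, so WT 2 was lowest in both sums. In these bulk samples fewer cells of a type and less RNA per cell cannot be told apart.

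Markers of other cells were set beside these sums. The 12 macrophage and monocyte markers summed to 112490 to 255310 in KO and 189030 to 293760 in WT, and 10 of the 12 had log2 fold changes below 0, with a median of -0.44. Mrc1 alone of the 12 had no overlap, its KO values ending at 12364 and its WT values starting at 15259. Such a separation, with KO lower, held for 2.09% of all tested genes. The 10 CD8 T cell markers had a median of 0.74, 9 of them above 0, and Cd8a alone kept its groups apart. Unadjusted limma p was 0.0022 for Mrc1, 0.0029 for Cd8a and 0.000465 for Cd3e, each below that of Ifi44 (0.0068). Their limma adjusted p was 0.286, 0.327 and 0.116. The lists were not compared by a test. Conventional dendritic cell markers summed to 1226 to 3016 in KO and 614 to 1156 in WT. Of these 6 genes only Ccr7 kept the groups apart, its lowest KO value being 668 and its highest WT value 615. The others overlapped between groups. Zbtb46 had a log2 fold change of -0.72, and Flt3 and Clec9a peaked in KO 1 (390 and 468). The sums were thus higher in every KO library than in any WT library. They do not show that each gene of the list was. The 8 plasmacytoid dendritic cell markers, a list that also holds Bst2, summed to 5825 to 14198 in KO and 8930 to 11647 in WT, and 5 of the 6 tested were above 0. Among them Siglech was between 1.10 and 1175 in KO and between 0 and 238 in WT, and Klk1 and Cox6a2 were at 0 in 7 and 6 libraries. None of the 5 tested markers of red blood cells and platelets was above 0, and the list summed to 3.30 to 523 in KO and 226 to 962 in WT. Hbb-bs of that list was at most 1.10 in KO and between 68.8 and 177 in WT. Of 7 fibroblast markers 6 were below 0, with sums of 3622 to 22089 in KO and 8038 to 19522 in WT. Of 4 tested B and plasma cell markers 3 were above 0. Igkc was between 297 and 586 in KO and between 56.5 and 114 in WT, without overlap, as in 2.02% of all tested genes. It had an adjusted p of 0.236 by limma, Ighm and Jchain overlapped between groups, and Ms4a1 was at -0.78. With the mean log2 value of the CD8 T cell markers as a covariate, an alternative added after the values were seen, the median of the 32 genes was 0.34 with 20 above 0. Trim30a was then at 0.50, Parp14 at 0.57, Ifi44 at 1.27 and Bst2 at 1.71. The covariate was lower in KO 1 (8.59) than in WT 1 (9.66), although the marker sum was higher in KO 1 (19494 against 18990). Markers near 0 in a library weigh heavily in a mean of log2 values. Beyond the fit with that covariate, the part of cell content in these differences was not tested.

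**Figure D4:**
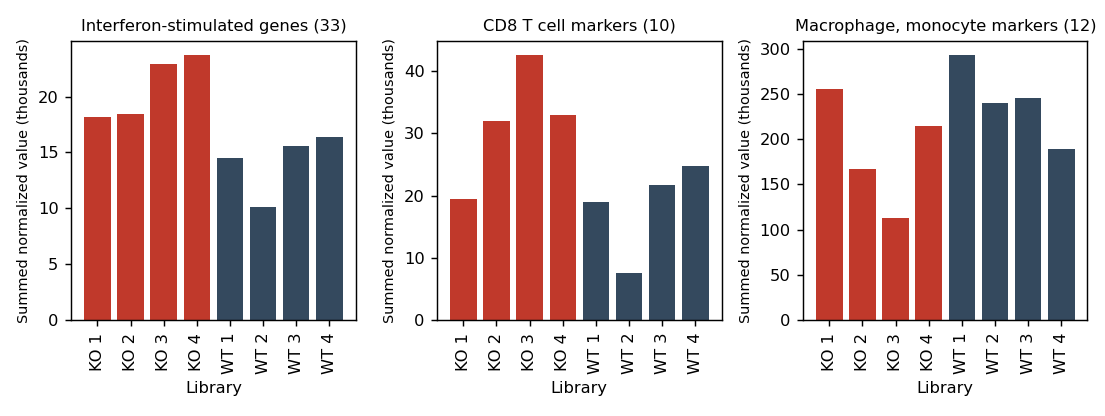
Summed normalized values divided by 1000 (y axis, from 0) for the 33 interferon-stimulated genes, 10 CD8 T cell markers and 12 macrophage and monocyte markers in each library (x axis, KO red, WT dark blue). WT 2 is the lowest library for the interferon-stimulated genes (10071) and for the CD8 T cell markers (7483), but not for the macrophage markers.

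Further along the pathway, the receptor genes overlapped between groups. Ifnar1 was between 2442 and 4310.1 in KO and between 2597.9 and 2918 in WT (log2 fold change 0.26, SE 0.23), and Ifnar2 at 1025 to 1193 and 848 to 1481 (-0.09, SE 0.28). Of the 5 genes for the receptor and its proximal signalling, none passed. Jak1, the most abundant of the 5, gave 0.41 (SE 0.26).

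The interferon genes themselves were hardly seen. Ifnk was at 25.3 in KO 4 and Ifnz at 12.6 in WT 4, each at 0 in the other 7 libraries. The other 16 type I interferon genes of the list had no row under their names in the authors' table. Among 12 tested sensors and adaptors upstream of interferon none passed, 6 being above 0. Tlr7, an endosomal receptor for single-stranded RNA and the most abundant of them, was at -0.83 (SE 0.29, adjusted p = 0.539 by limma) and Mavs, the adaptor of RIG-I and MDA5, at -0.84 (SE 0.45). Of 8 negative regulators none passed and 6 were above 0, including Samhd1, a dNTP hydrolase (0.78, SE 0.26, limma adjusted p = 0.477), Socs1 (2.32, from 0.946 to 172 over the libraries) and Socs3 (0.32, SE 0.24), which inhibit cytokine signalling.

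A list of 34 further interferon-stimulated genes was measured beside the 33. Of its 33 tested genes none passed, 29 were above 0, the median was 0.42, and 6 had an unadjusted p under 0.05, all higher in KO (3.21% of all tested genes). Ifitm3, which blocks virus entry from endosomes, was at 1.96 (SE 0.69, adjusted p = 0.584 by limma), and Lgals3bp at 1.08 (SE 0.41, adjusted p = 0.654 by limma). Rnf213, the most abundant gene of that list, was at 0.33 (SE 0.23).

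Among the pathway lists, only that of genes weighted to interferon gamma held calls, 7 of the 34 genes called higher in KO. Of 28 such genes, 7 passed (0.211% of all tested genes were called higher), 27 were above 0 and the median was 1.35. In 12 of the 28 all KO libraries lay above all WT libraries, as in 2.02% of all tested genes and 3.51% of those with a mean of at least 448. The called genes were the chemokine Cxcl9 (3.07, SE 0.40), the GTPases Gbp2 (2.24, SE 0.30) and Iigp1 (2.86, SE 0.39), the checkpoint ligand gene Cd274 (1.32, SE 0.24), and H2-Aa, H2-Eb1 and Cd74 of antigen presentation (1.80, 1.73 and 1.54). Their limma adjusted p ran from 0.00139 (Cxcl9) to 0.0179 (Cd274). Cxcl9, Gbp2, Iigp1 and Cd74 passed in each of the 8 omissions, H2-Eb1 failed without KO 4, H2-Aa without KO 4 or WT 1, and Cd274 without KO 1, KO 2, KO 4, WT 1 or WT 3. With a minimum mean of 50 the adjusted p was 0.0525 for H2-Aa and 0.0538 for Cd274, and with robust hyperparameters it was 0.157 for H2-Aa (limma). With the replicate number as a block in the fit, none of the 7 passed. Both lists were drawn up with results of these data known, and the difference between them was not tested. RefSeq promoters were held for 20 of the 28, 9 with an ISRE core and 9 with a GAS core, or 45% each.

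The changes were also set beside the promoter matches. The 16 genes with a match had a median log2 fold change of 0.53, 14 of them above 0, and the 9 genes with a promoter and no match had a median of 0.45, 7 of them above 0. Of the 8 genes with no entry in the promoter table, 7 were tested, with a median of -0.59 and 3 above 0. Ifi44, which had the smallest p, was among those with no match in the window. These are small sets, and the differences between them were not tested.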

How the data were processed

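Bulk RNA-seq values of 8 libraries were used. The submitters' processing notes list the tools Partek, DESeq2 and STAR 2.7.8a and the genome build mm39, whose roles are not given in the sources used here. Per the labels' protocols, RNA was extracted from sorted cells and depleted of ribosomal RNA. Each deposited value is a signal: reads that the authors estimated for a gene, divided by a library's DESeq2 size factor, going by the name of the table. They include fractions, so no count model was run. Strand was not stated, so antisense overlaps cannot be parted.

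Values were used as log2(value + 1). Genes whose mean reached 10 entered a limma fit (version 3.58.1, R 4.3.3) of KO against WT, with moderated variances that follow a trend in mean level and no covariate. Tests were two-sided and adjusted by Benjamini-Hochberg over 16120 genes, threshold 0.05. Fold changes are on this scale, where the pseudocount understates differences between low values and a library at or near 0 weighs heavily, so they can differ from ratios of means, also in sign. The fit was tested on simulated data. The labels call the 4 samples of a group biological replicates, without naming separate animals.

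The worth of 1 read was the most frequent low value in a library. Fragment numbers were solved from the share of genes with under 3 reads among those averaging 20 to 500 elsewhere, under Poisson sampling. Small nuclear, nucleolar and Cajal body RNAs were left out of that estimate. Levels per length used exon lengths from GENCODE vM21. Positions are those of the authors' table, and promoters are RefSeq's on GRCm38.p6, never mixed with mm39.

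The members and lists were chosen with earlier results of these data known. All members are named; those with a mean of at least 1000, an unadjusted p under 0.05, or among the 2 smallest p of their role are given by library. From each pathway list come the genes past the threshold, the 2 with the smallest p and the most abundant, except 1 gene that is not reported here. Alternatives covered pseudocount, minimum mean, TMM and quantile scaling, a replicate block, library weights, robust hyperparameters, each library left out and, added later, a CD8 marker covariate.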

Additional observations from a re-analysis of the deposited data

Results flagged for a closer look

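Single libraries stood far from the other 3 of their group, by Dixon's ratio on the log2 scale, for 5 of 64 sets of 4 values, and chance alone marks about 1 in 20. Isg15 was at 0 in KO 2 and at 171 in WT 2. Cmpk2 was at 0 in KO 2. Oas2 was at 0 in WT 1. Rtp4 was at 2.71 in KO 1. All of these genes have a mean below 448, and a single fragment was worth 149 in KO 2, 77.8 in KO 1, 60.9 in WT 1 and 64.4 in WT 2.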

How the results depend on the processing

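By limma, none of the interferon-stimulated genes passed in the fit reported (6 had an unadjusted p under 0.05) or under any of 18 alternatives (3 to 8 had), the lowest adjusted p being 0.0704 (Ifi44 with library weights). Their median log2 fold change, 0.48 in the fit reported, ran from 0.34 (CD8 marker covariate) to 0.64 (without WT 4) over the 18. The count of all genes past the threshold, 38, was 80 with a pseudocount of 20, 15 with a minimum mean of 50, 112 with library weights, and 7 to 70 when 1 library was left out (7 without KO 4, 11 without WT 1, 22 to 24 without KO 1, KO 2, WT 2 or WT 3, and 70 without WT 4). With the replicate block it was 0 by limma, with 1101 genes at an unadjusted p under 0.05 and 6 of the members among them, and all 7 interferon gamma-weighted calls were lost (adjusted p 0.0513 to 0.0875). Deviations of libraries with the same number correlated at 0.02 to 0.08, and 1 of 4 KO libraries correlated best with its own number. The labels do not say whether the numbers pair the samples, and so few libraries cannot settle it. The fit reported did not treat them as pairs.

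Signs changed for 10 of the 32 tested members, none of them past the threshold. Isg15 was at 0.11 with a pseudocount of 20. With library weights Ddx58 was at -0.11, Zbp1 at 0.41, Isg15 at 0.80, Rtp4 at 0.13 and Xaf1 at 0.12. With the CD8 marker covariate, chosen after seeing the data, Ddx58 was at -0.11, Ddx60 at -0.10, Oas3 at -0.093 and Oasl2 at -0.045. Over the 8 omissions the values ran from -1.40 to 1.19 for Rtp4, -2.01 to 0.57 for Zbp1, -1.47 to 1.07 for Isg15, -0.28 to 0.11 for Xaf1, -0.14 to 0.33 for Ddx58, -0.16 to 0.25 for Ddx60, -0.12 to 0.74 for Oas3, -0.63 to 1.83 for Oasl2, -0.18 to 0.69 for Ifit1bl1 and -0.053 to 2.94 for Oasl1. The causes were not tested. Values of the 21 less abundant genes rest on few fragments.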
